A study of Mus musculus with 12 samples.

Results

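Glul, Slc1a2, Oat, Rhbg, Lgr5, Axin2, Tbx3, Notum, Rnf43 and Lect2 are β-catenin target genes that hepatocytes around the central vein express. They were taken by symbol from 2 tables of gene expression in mouse liver tumours, where they are 10 of 21751 genes and loci and 10 of 24054 genes. All 10 were present in both tables, and all 10 passed the filter of a mean value of at least 1. The list was drawn up with the levels of these genes in the same libraries known, and is treated as selected on the difference between knockout and floxed tumours, which is therefore described here and not tested.

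The liver lobule is divided into zones between the portal tract, where blood enters, and the central vein, where it leaves. Endothelial cells of the central vein secrete Wnt ligands, which stabilise β-catenin in the neighbouring hepatocytes and switch on a pericentral programme. Its best known output is glutamine synthetase, by which the last hepatocytes on the path of the blood capture ammonia that periportal urea synthesis has missed. Mouse liver tumours with activating mutations of the β-catenin gene typically have high glutamine synthetase, and tumours without them often have little.

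The tumours were hepatocellular carcinomas of C57BL/6 mice, in 12 libraries that form 4 groups of 3. The floxed Miz1 group (Miz1fl/fl, Alb-Cre negative) was the control of Miz1△Hep, the same floxed genotype with Alb-Cre. The floxed Miz1(POZ) group (Miz1(POZ)fl/fl, Alb-Cre negative) was the control of Miz1(POZ)△Hep, again with Alb-Cre. Miz1 is a zinc finger transcription factor encoded by Zbtb17, and its POZ domain mediates contacts with other proteins. All 4 groups, controls included, received diethylnitrosamine at 25 mg/kg in postnatal week 2 and then carbon tetrachloride at 0.5 ml/kg each week, and tumours were taken at 5 months, so no untreated or tumour-free liver was compared. The albumin promoter drives Cre in hepatocytes, and the other cells of a tumour keep the floxed gene. The number of mice behind the tumours is not in the labels, and p-values therefore measure only the spread between these samples, which may be technical. Knockout is used below for the Cre positive group of each allele. In whole tumours, fewer cells of a type and less RNA per cell cannot be told apart.

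The Miz1 table holds reads divided by 1 factor per library, called normalised reads here. It has 30151743 to 76122969 reads in genes in the 5 libraries for which reads could be recovered. The Miz1(POZ) table holds FPKM, which scale reads to transcript length and library size, and its depth is unknown. For Zbtb17 the floxed Miz1 libraries had 323, 306 and 302 normalised reads, all above the 261, 271 and 267 of Miz1△Hep. It was at 2.03, 2.46 and 1.82 FPKM in floxed Miz1(POZ) and at 2.55, 2.60 and 1.95 in Miz1(POZ)△Hep libraries, where the groups overlapped. The labels name no deleted exon, so a value over the whole gene checks the genotype only in part. Alb, the albumin gene that marks hepatocytes, was high in every library, at 1213390 to 4518466 normalised reads and at 23093 to 62597 FPKM. With limma, 0 of 21751 genes in the Miz1 table and 0 of 11201 in the Miz1(POZ) table passed an adjusted p of 0.05 (smallest 0.9998 and 0.0856). At an unadjusted p under 0.05 there were 364 and 976. The libraries numbered 1 of both Miz1 groups stood apart from the other 4. They were the 2 lowest of the 6 libraries for 21.9% of all genes and the 2 highest for 22.1%, against 5.79% and 3.28% in the Miz1(POZ) table. Fold changes and counts of the 10 genes, and list medians, in the Miz1 table are therefore given with and without them.

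Promoters of 6 of the 10 genes were found in the RefSeq table for GRCm38.p6, which gives 250 bases before and 50 bases after a start site. Rhbg, Lgr5, Tbx3 and Notum had no entry. The letters CTTTGAT and CTTTGAA, the core bound by the TCF/LEF partners of β-catenin, were searched on both strands, and as they differ in the last letter a position on 1 strand can match only 1 of them. Of the 7 promoters, with 2 for Rnf43, those of Slc1a2 and Lect2 held CTTTGAT on the opposite strand, printed in capitals as ATCAAAG, and the other 5 held neither. Among all 32851 promoters of the table, 3.73% held CTTTGAT, 5.14% held CTTTGAA and 8.65% held either. The Slc1a2 promoter (chr2:102706188-102706487, plus strand) lies inside the gene as GENCODE draws it, at a later start site, and its match begins at base -207. The match of Lect2 (chr13:56548489-56548788, minus strand) begins at base -32. They are shown because they hold the match. The Glul promoter (chr1:153899679-153899978, plus strand), without one, is shown because the Miz1(POZ) groups did not overlap for Glul, as described below. A match is a description of letters and no evidence of binding.
Slc1a2: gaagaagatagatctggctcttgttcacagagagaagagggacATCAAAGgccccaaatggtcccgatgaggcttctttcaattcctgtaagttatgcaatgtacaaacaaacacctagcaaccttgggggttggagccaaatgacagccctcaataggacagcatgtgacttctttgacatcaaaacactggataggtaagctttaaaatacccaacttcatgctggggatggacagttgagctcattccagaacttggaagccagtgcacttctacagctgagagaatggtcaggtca
Lect2: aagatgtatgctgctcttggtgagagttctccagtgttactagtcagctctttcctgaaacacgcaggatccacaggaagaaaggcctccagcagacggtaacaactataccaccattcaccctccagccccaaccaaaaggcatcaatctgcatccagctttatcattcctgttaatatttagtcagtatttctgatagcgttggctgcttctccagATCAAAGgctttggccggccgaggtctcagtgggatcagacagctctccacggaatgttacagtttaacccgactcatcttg
Glul: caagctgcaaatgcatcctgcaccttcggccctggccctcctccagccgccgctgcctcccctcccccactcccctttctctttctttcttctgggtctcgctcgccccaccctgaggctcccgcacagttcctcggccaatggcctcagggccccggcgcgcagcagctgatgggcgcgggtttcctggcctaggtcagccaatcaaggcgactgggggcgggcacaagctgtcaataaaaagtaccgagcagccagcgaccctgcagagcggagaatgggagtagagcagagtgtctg

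In Miz1(POZ) tumours, Glul and Slc1a2 lay higher in every knockout library than in any floxed library, by 1.96-fold and 5.95-fold in the mean, and the other 8 genes overlapped between the groups. Glul, on chromosome 1 from 153899944 to 153909723, plus strand (GRCm38, GENCODE M21), encodes glutamine synthetase, which joins ammonia to glutamate. Floxed replicates 1 to 3 had 88.3, 81.2 and 69.5 FPKM of Glul, and knockout replicates 1 to 3 had 138, 215 and 115 FPKM. Every knockout library lay above every floxed library, and knockout replicate 2 was the highest. The means were 79.7 ± 9.49 and 156 ± 52.7 FPKM (SD, n = 3 in each group here and below), a 1.96-fold ratio, and the log2 fold change of knockout over floxed was 0.92 ± 0.25 (moderated SE of limma, on the log2(value + 1) scale as below).

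Slc1a2, on chromosome 2 from 102658659 to 102790784, plus strand, encodes the glutamate transporter GLT-1, which pericentral hepatocytes use to take up the substrate of glutamine synthetase. It was at 6.80, 4.25 and 4.04 FPKM in the floxed libraries and at 24.9, 43.9 and 21.0 FPKM in the knockout libraries. The groups did not overlap, and the lowest knockout library was above the highest floxed library by more than the whole range of the floxed group. The means were 5.03 ± 1.54 and 29.9 ± 12.3 FPKM, a 5.95-fold ratio, with a log2 fold change of 2.32 ± 0.30. Leaving out each library in turn gave log2 fold changes of 2.01 to 2.53 for Slc1a2 and of 0.66 to 1.11 for Glul. The lowest value for Glul came without knockout replicate 2. Endothelial marker genes summed to 72.3 to 90.2 FPKM in floxed and 61.0 to 86.8 FPKM in knockout libraries, and hepatocyte markers to 61187 to 102338 and 44736 to 83487 FPKM. Their part in these differences was not tested.

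Oat, on chromosome 7 from 132557478 to 132576398, minus strand, encodes ornithine aminotransferase, a mitochondrial enzyme that turns ornithine toward glutamate. It was at 63.1, 89.7 and 28.3 FPKM in floxed and at 72.7, 189 and 43.5 FPKM in knockout tumours. The groups overlapped, and replicate 2 was the highest and replicate 3 the lowest in both. The log2 fold change was 0.62 ± 0.60, and it came to 0.05 without knockout replicate 2. Rhbg, on chromosome 3 from 88242874 to 88254709, minus strand, encodes an ammonium transporter of the hepatocyte membrane. It was at 1.97, 1.93 and 3.46 FPKM in floxed and at 2.15, 7.30 and 4.29 FPKM in knockout tumours. Floxed replicate 3 lay above knockout replicate 1, so the groups overlapped, with a log2 fold change of 0.61 ± 0.35. It was 0.27 without knockout replicate 2 and 0.97 without knockout replicate 1.

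**Figure D1:**
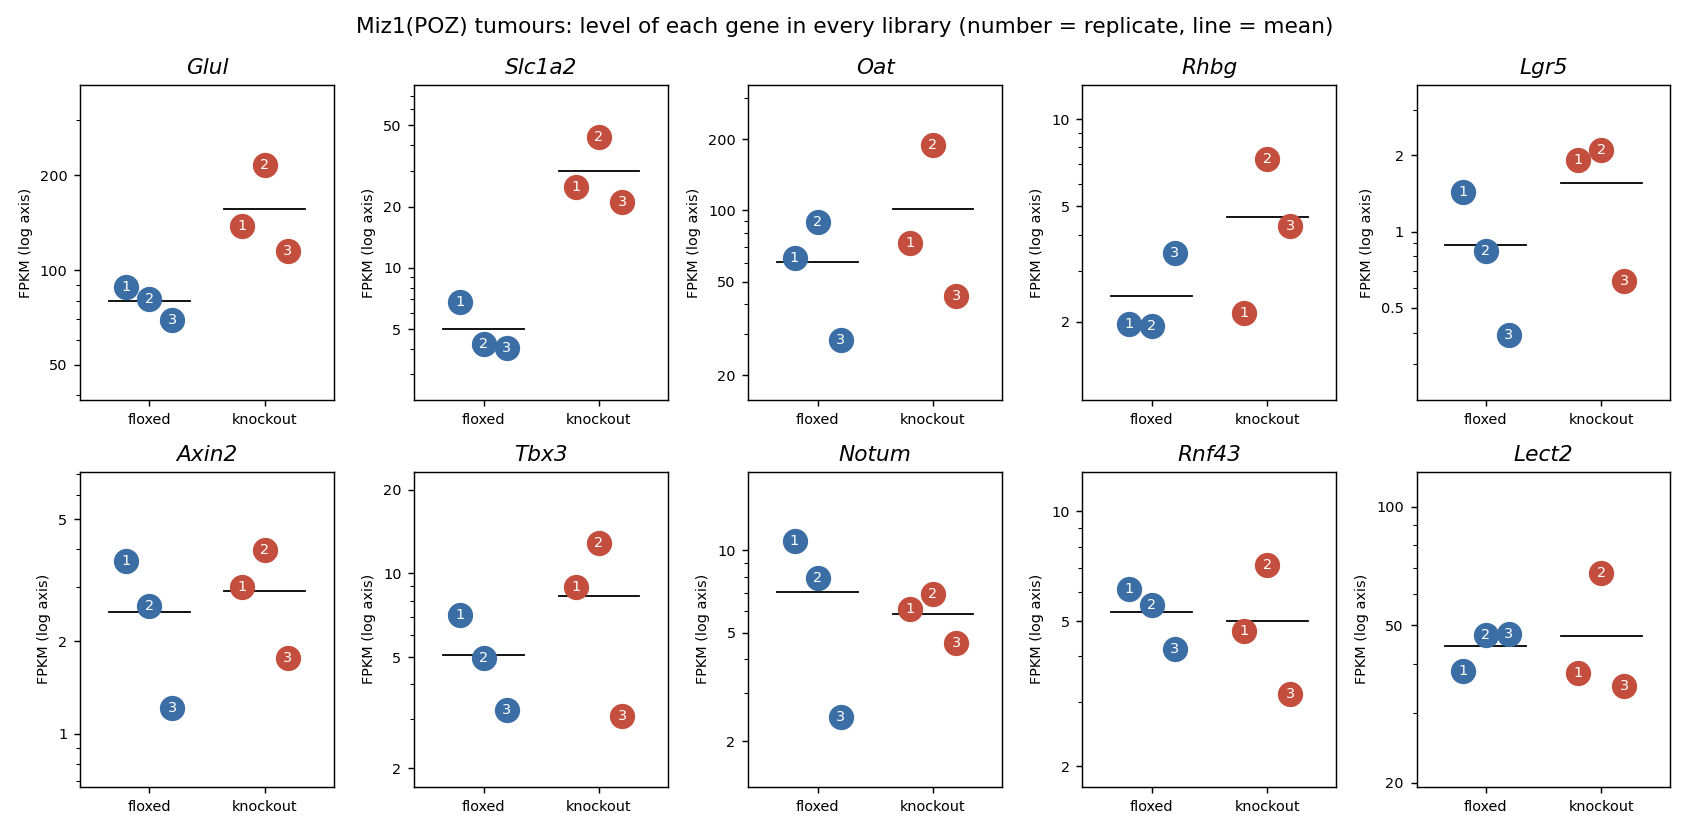
Level of each of the 10 genes in the 6 Miz1(POZ) libraries, as FPKM on a log axis, with floxed tumours in blue and knockout tumours in red. Each point is 1 library marked with its replicate number, and the line is the group mean. Glul and Slc1a2 are the genes whose points do not overlap, and knockout replicate 2 is the highest point for 9 of the 10 genes.

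Lgr5, Axin2, Notum and Rnf43 are Wnt targets that act back on the pathway. Lgr5, a receptor for R-spondin that strengthens Wnt signalling (chromosome 10 from 115450311 to 115587780, minus strand), was at 1.43, 0.84 and 0.39 FPKM in floxed and at 1.92, 2.10 and 0.64 FPKM in knockout tumours. Knockout replicates 1 and 2 were above all floxed libraries, and knockout replicate 3 was below floxed replicates 1 and 2 (log2 fold change 0.42 ± 0.31, and 0.22 without floxed replicate 3 and 0.71 without knockout replicate 3). Axin2, a scaffold of the complex that degrades β-catenin and a general readout of the pathway (chromosome 11 from 108920349 to 108950783, plus strand), was at 3.65, 2.60 and 1.21 FPKM in floxed and at 3.02, 3.97 and 1.77 FPKM in knockout tumours. The groups overlapped over most of their range (log2 fold change 0.19 ± 0.32). Notum, a secreted enzyme that inactivates Wnt ligands (chromosome 11 from 120653788 to 120661175, minus strand), was at 10.8, 7.96 and 2.45 FPKM in floxed and at 6.12, 6.91 and 4.59 FPKM in knockout tumours. The floxed libraries held both the highest and the lowest value (log2 fold change -0.07 ± 0.43). Rnf43, a ubiquitin ligase that removes Frizzled receptors from the cell surface (chromosome 11 from 87662722 to 87735539, plus strand), was at 6.11, 5.53 and 4.20 FPKM in floxed and at 4.70, 7.13 and 3.16 FPKM in knockout tumours. Here the knockout libraries held both extremes (log2 fold change -0.11 ± 0.25).

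Tbx3, a T-box transcription factor that acts downstream of β-catenin in liver tumours (chromosome 5 from 119670669 to 119684724, plus strand), was at 7.10, 4.97 and 3.25 FPKM in floxed and at 8.96, 12.9 and 3.09 FPKM in knockout tumours. The knockout group held the highest value and the lowest, and the log2 fold change was 0.49 ± 0.46. Lect2, a protein that hepatocytes secrete (chromosome 13 from 56542464 to 56548502, minus strand), was at 38.4, 47.2 and 47.5 FPKM in floxed and at 37.9, 68.1 and 35.1 FPKM in knockout tumours. Knockout replicate 2 was the highest and the other knockout libraries were the lowest (log2 fold change 0.02 ± 0.26). When single libraries were left out, the log2 fold change ranged from -0.10 to 0.43 for Axin2, from -0.60 to 0.29 for Notum, from -0.35 to 0.13 for Rnf43 and from -0.27 to 0.20 for Lect2. Each of these 4 ranges spans 0. That of Tbx3, from 0.11 to 0.99, does not.

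By count, 2 of the 10 genes had all knockout values above all floxed values, beside 8.68% of all 11201 genes tested, and 0 of 10 had them below, beside 6.32%, so that 2 of 10 did not overlap in either direction, beside 15%. Adjusted over all genes, 0 of 10 passed, as did 0% of all genes, and 2 of 10 had an unadjusted limma p under 0.05, beside 8.71%. The median log2 fold change of the 10 was 0.45 and that of all genes 0.03. As the same contrast chose the genes, nothing is read from these shares. Knockout replicate 2 was the highest of the 6 libraries for 9 of the 10 genes, all but Notum, and for 27% of all genes, and it was the lowest for 0 of the 10, beside 10.4%. Floxed replicate 3 was the lowest for Glul, Slc1a2, Oat, Lgr5, Axin2 and Notum, and for 32.8% of all genes, and it was the highest for 0 of the 10, beside 17.6%. In knockout replicate 2 the summed markers of hepatocytes were the lowest of the 6 libraries, at 44736 FPKM, and in floxed replicate 3 the highest, at 102338 FPKM. Most of these 2 sums was Alb, at 23093 and 62597 FPKM. By the median log2 deviation of the list from its mean over the 6 libraries, knockout replicate 1 was the lowest, at -0.13. Knockout replicate 2 was at -0.11 and floxed replicate 3 was the highest, at 0.13. The part of hepatocyte content in the order of the libraries was not tested.

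FPKM are per length and allow levels to be set against each other. In floxed Miz1(POZ) tumours the order of mean levels was Glul, Oat, Lect2, Notum, Rnf43, Tbx3, Slc1a2, Axin2, Rhbg and Lgr5, from 79.7 to 0.887 FPKM. Of the 9 neighbouring pairs in that order, the libraries of 3 did not overlap, which were Lect2 and Notum, Slc1a2 and Axin2, and Rhbg and Lgr5. In knockout tumours the order was Glul, Oat, Lect2, Slc1a2, Tbx3, Notum, Rnf43, Rhbg, Axin2 and Lgr5, from 156 to 1.55 FPKM. There 1 of 9 neighbouring pairs did not overlap, that of Slc1a2 and Tbx3. Slc1a2 thus ranked 7 of 10 in the floxed and 4 of 10 in the knockout tumours, while the first 3 genes were in the same order in both.

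In Miz1 tumours, 8 of the 10 genes were lowest in the libraries numbered 1 of both groups, beside 21.9% of all genes. Among replicates 2 and 3, a choice made after the values were seen, 7 of these 8 genes, all but Tbx3, had both knockout values below both floxed values. That held for 19.4% of all genes. Over all 3 replicates 0 of the 10 genes had every knockout value below every floxed value. Floxed replicates 1 to 3 had 1684, 13252 and 12858 normalised reads of Glul, and knockout replicates 1 to 3 had 2050, 7194 and 6523. Replicate 1 was far below the others in both groups, which overlapped. The means were 9264 ± 6568 and 5256 ± 2796 normalised reads, and the log2 fold change was -0.53 ± 0.91. Slc1a2 had 49.2, 5759 and 6094 normalised reads in floxed and 115, 2910 and 2716 in knockout replicates. Its highest library was 124 times its lowest, which is the widest range of the 10 genes, and the log2 fold change was -0.31 ± 2.18. Oat had 285, 8804 and 7506 normalised reads in floxed and 506, 4213 and 5235 in knockout replicates. The highest library was 30.8 times the lowest (log2 fold change -0.25 ± 1.53). Rhbg had 2.40, 16.2 and 29.3 normalised reads in floxed and 4.79, 11.4 and 9.60 in knockout replicates. These are few reads, and the order of the libraries was again replicate 1 of both groups lowest (log2 fold change -0.41 ± 0.86).

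Lgr5, Axin2, Notum and Tbx3 also had the libraries numbered 1 lowest, in a narrower range than Slc1a2 and Oat. Lgr5 had 82.8, 309 and 229 normalised reads in floxed and 91.1, 227 and 171 in knockout replicates (log2 fold change -0.24 ± 0.57). Axin2 had 43.2, 443 and 261 normalised reads in floxed and 67.1, 234 and 238 in knockout replicates (-0.14 ± 0.94). In both genes the libraries numbered 1 were the 2 lowest and floxed replicate 2 was the highest. Notum had 37.2, 364 and 241 normalised reads in floxed and 67.1, 221 and 223 in knockout replicates (log2 fold change 0.00 ± 0.92). Tbx3 had 193, 1248 and 535 normalised reads in floxed and 224, 934 and 687 in knockout replicates (log2 fold change 0.05 ± 0.80). In both, floxed replicate 2 was again the highest.

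Rnf43 and Lect2 did not follow this order. Rnf43 had 987, 721 and 1019 normalised reads in floxed and 1048, 930 and 843 in knockout replicates (log2 fold change 0.06 ± 0.18). Lect2 had 1192, 360 and 1278 normalised reads in floxed and 1483, 674 and 634 in knockout replicates (log2 fold change 0.07 ± 0.57). Floxed replicate 2, the highest library for 6 of the other genes, was the lowest for both, and knockout replicate 1 was the highest.

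**Figure D2:**
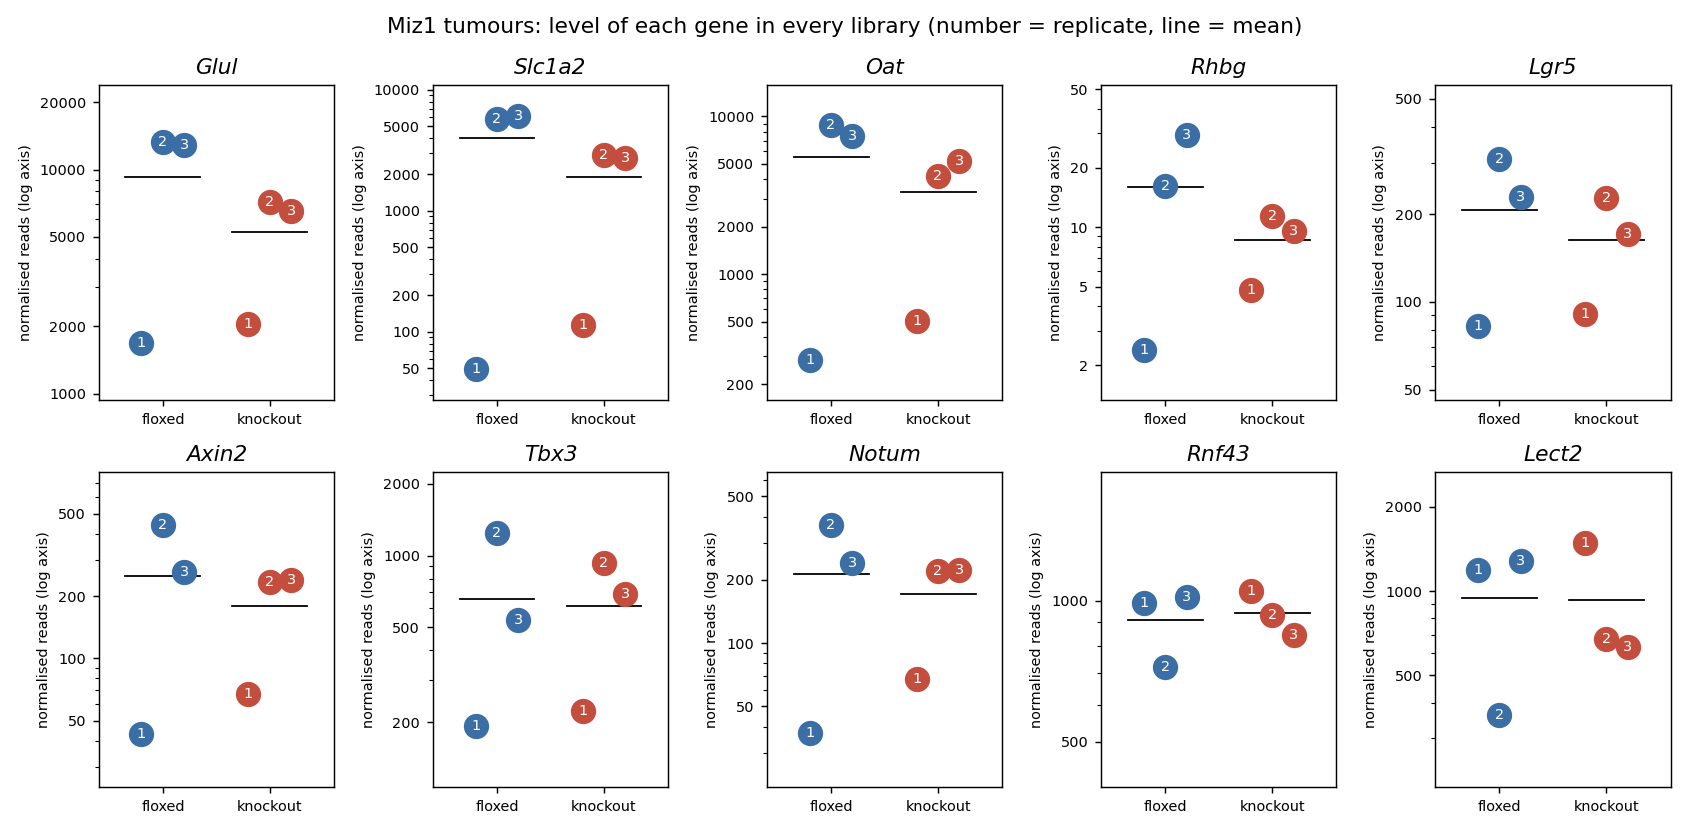
Level of each of the 10 genes in the 6 Miz1 libraries, as normalised reads on a log axis, with floxed tumours in blue and knockout tumours in red. Each point is 1 library marked with its replicate number, and the line is the group mean. For 8 genes the points numbered 1 are the lowest in both groups, and Rnf43 and Lect2 are the exceptions.

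The direction of the Miz1 difference depended on single libraries, with the sign turned in 1 to 3 of the 6 fits that each left out 1 library for every one of the 10 genes. For Slc1a2 the log2 fold change was -2.61 without floxed replicate 1 and 1.22 without knockout replicate 1, and for Oat it was -1.86 and 0.82. It also came above 0 without floxed replicate 2 or 3, at 0.81 and 0.85 for Slc1a2 and at 0.61 and 0.49 for Oat. For Glul it was -1.51 without floxed replicate 1 and 0.05 without knockout replicate 1, and below 0 in the other 4 fits. For Rhbg the sign turned without floxed replicate 3, to 0.26. For Lgr5, Axin2, Tbx3 and Notum the lowest value came without floxed replicate 1 (-0.80, -1.12, -0.64 and -0.99) and the highest without floxed replicate 2 (0.14, 0.54, 0.70 and 0.64). For Rnf43 and Lect2 the lowest came without floxed replicate 2 (-0.10 and -0.52) and the highest without floxed replicate 3 (0.15 and 0.39). With both libraries numbered 1 left out, an alternative chosen after seeing the data, it was -0.93 for Glul, -1.08 for Slc1a2, -0.79 for Oat and -0.99 for Rhbg. For Lgr5, Axin2 and Notum it was then -0.43, -0.52 and -0.42, and for Tbx3, Rnf43 and Lect2 it was -0.03, 0.05 and -0.05. Between same-numbered libraries, the ratio of knockout to floxed Glul was 1.22, 0.543 and 0.507 for replicates 1, 2 and 3, and that of Slc1a2 was 2.34, 0.505 and 0.446. Pair 1 thus lay above 1 and pairs 2 and 3 below it for both genes.

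By count, 0 of the 10 genes had groups that did not overlap in the Miz1 table, beside 5.62% of all 21751 genes (2.57% with the knockout above and 3.05% with it below). Of the 10, 0 passed the adjusted test, beside 0% of all genes, and 0 had an unadjusted limma p under 0.05, beside 1.67%. Fold changes were above 0 for 4 genes and below 0 for 6, with a median of -0.19 beside 0.01 for all genes. Without the libraries numbered 1, both knockout values lay below both floxed values for 7 of the 10 (Glul, Slc1a2, Oat, Rhbg, Lgr5, Axin2 and Notum), beside 19.4% of all 21747 genes then tested, and above them for 0, beside 19.1%. In that fit 9 fold changes were below 0, with a median of -0.48 beside 0.01 for all genes, and 0 of the 10 passed the adjusted limma test. As the same contrast chose the genes, nothing is read from these shares. In floxed and knockout replicate 1, in that order, macrophage markers summed to 13622 and 15989 normalised reads, against 5150 to 8296 in the other 4. Endothelial markers summed to 16156 and 13945, against 12584 to 13168. Cholangiocyte markers summed to 8553 and 11187, against 2137 to 2914, and stellate cell markers to 17988 and 24506, against 9343 to 15905. In floxed replicate 1 the cholangiocyte sum was mostly Spp1 (6294), with Krt19 and Krt7 the lowest of the 6 libraries, and the stellate sum was mostly Reln (9574), with Dcn, Pdgfrb and Des the lowest. The median deviation of the list from its mean over the 6 libraries was -0.97 (log2) for cholangiocyte and -0.19 for stellate markers in floxed replicate 1, and 2.06 and 0.97 in knockout replicate 1. These 2 libraries were the 2 highest for 9 of 10 macrophage, 6 of 11 endothelial, 3 of 9 stellate cell and 2 of 7 cholangiocyte markers, while Krt19, the cytokeratin that defines cholangiocytes, was at 2.40 and 125 normalised reads in them. No marker of these 4 lists was at 0 in any Miz1 library. Hepatocyte markers summed to 6776499 and 4486647 normalised reads in floxed and knockout replicate 1, against 2356806 to 4479838 in the others. Most of these 2 sums was Alb (4518466 and 2669540). Floxed replicate 1 was the highest library for 7 of 8 hepatocyte markers. Knockout replicate 1 was the highest for 0 of 8 and the lowest for 2, Ttr and Hnf4a. The part of these cell types in the low values was not tested.

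**Figure D3:**
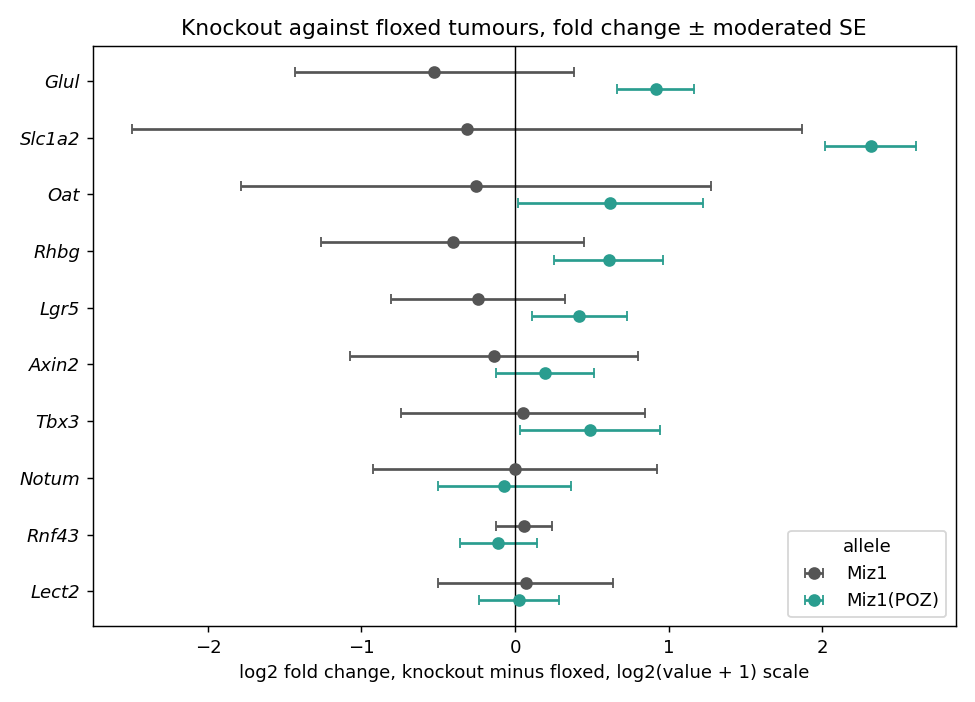
Log2 fold change of knockout over floxed tumours for the 10 genes in each table, on the log2(value + 1) scale, with bars of 1 moderated SE. In the Miz1 table the bars of Slc1a2 and Oat are the widest and all fold changes lie between -0.53 and 0.07, and in the Miz1(POZ) table Slc1a2 at 2.32 and Glul at 0.92 lie furthest above 0.

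The tables differ in unit and were normalised separately, so the 2 alleles could not be compared in 1 fit, and whether their effects on these genes differ was not tested. How the genes varied with each other within groups was tested instead, with the knockout contrast taken out by centring. The list was drawn up with the levels in these libraries known, so this test is not free of that choice. Each gene was centred in each group of 3 libraries and scaled within its table. Over all 12 libraries 6 of the 9 other genes correlated with Glul at an adjusted exact permutation p under 0.05, and they were Slc1a2, Oat, Lgr5, Axin2, Tbx3 and Notum (smallest 0.00278). The share of all genes that would pass was not computed, so the count is not read as a trait of these genes. By Pearson r with Glul over all 12 libraries, Slc1a2 ranked 3, Oat 12, Tbx3 66 and Notum 549 among 6916 genes with a mean of at least 5 in both tables. Rnf43 ranked 2632 and Lect2 3010. Lgr5, Axin2 and Rhbg were below that mean in the Miz1(POZ) table and were not ranked. The ranks rest in part on the 2 Miz1 libraries that stand apart, and no rank without them is given. Because 2 Miz1 libraries stand apart, no r of a member is given over all 12 libraries. Without them, 0 of 9 passed over 10 libraries (smallest adjusted exact permutation p = 0.0833, from 144 orders). Slc1a2 then had a Pearson r of 0.812 and a Spearman rho of 0.855 with Glul (exact permutation p = 0.0625 and 0.0417). Lgr5 had an r of 0.814 and a rho of 0.855, and Tbx3 had 0.796 and 0.782 (exact permutation p = 0.0417 and 0.0139, and 0.0278 and 0.0208). Rnf43 had an r of 0.644, Axin2 0.628, Notum 0.460, Lect2 0.443, Oat 0.405 and Rhbg 0.265. The exact permutation p of these r was 0.0972, 0.0278, 0.0208, 0.424, 0.403 and 0.667 in that order. These p, and those of Slc1a2, Lgr5 and Tbx3, are unadjusted. All 9 values of r were above 0. The share of all genes with an r above 0 is not given, so nothing is read from that count. With the 2 libraries farthest from the median of Glul left out instead, which were floxed replicate 1 of the Miz1 table and knockout replicate 3 of the Miz1(POZ) table, 5 of 9 passed over 10 libraries (Slc1a2, Lgr5, Axin2, Tbx3 and Notum, adjusted exact permutation p = 0.025 for each). That set still holds knockout replicate 1 of the Miz1 table.

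**Figure D4:**
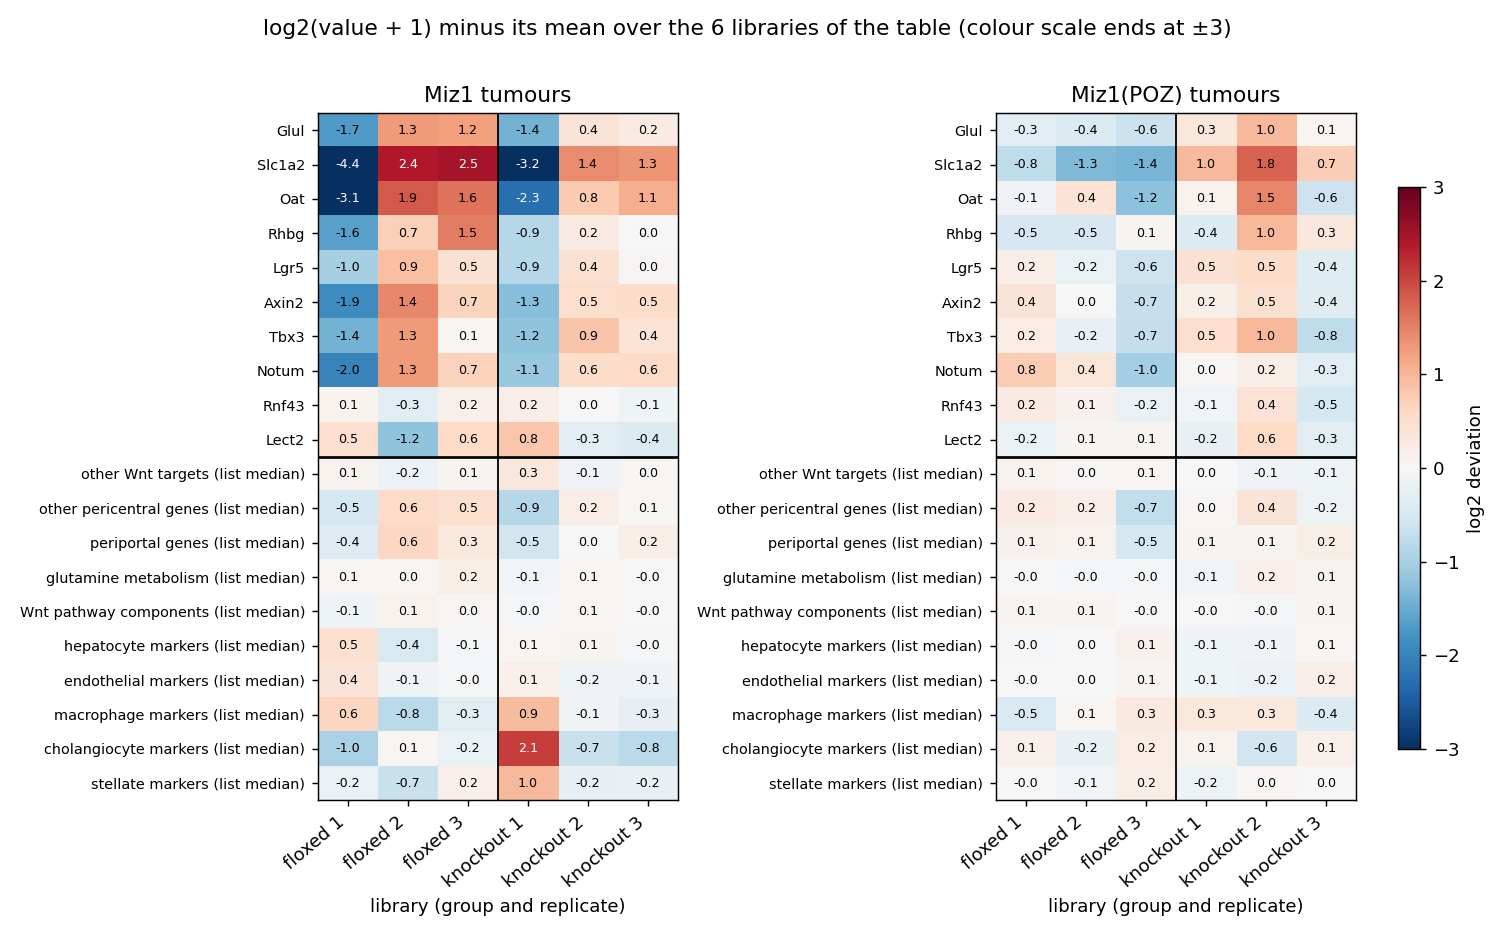
Colour map of log2(value + 1) in each of the 12 libraries minus its mean over the 6 libraries of the table, for the 10 genes and, under the thick line, for the median of each list (libraries across, genes and lists down, red above and blue below the mean, colours ending at ±3). The replicate 1 columns of both Miz1 groups are low for 8 genes, with the deepest values for Slc1a2 and Oat, and are not low for Rnf43 and Lect2.

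Outside the group, the genes whose pattern within groups was most like that of Glul over the 12 libraries were Mthfd1, Hspb8, Taco1, Rgp1 and Fh1, among 6916 genes with a mean of at least 5 in both tables. As a description with no test, their Pearson r ranged from 0.961 to 0.982, and Slc1a2 ranked 3 of 6916. Without the libraries numbered 1 of the Miz1 table, r was 0.454, 0.509, 0.665, 0.921 and 0.628 in that order. Of the 5, the value of Rgp1 changed least. The r of Slc1a2 was then 0.812, and no rank without those libraries is given.

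Of the wider pathway, other Wnt targets, Wnt pathway components, glutamine metabolism, other pericentral genes and periportal genes were counted. In the Miz1(POZ) table, 0 of 12 other Wnt targets, 0 of 29 pathway components, 0 of 20 glutamine genes, 0 of 29 pericentral and 0 of 24 periportal genes passed the adjusted test in either direction. Their median log2 fold changes were -0.06, -0.05, 0.02, 0.17 and 0.26, beside 0.03 for all genes. Ccnd1, the cyclin that drives entry into the cell cycle, was at 18.4, 17.8 and 41.2 FPKM in floxed and at 6.06, 6.59 and 12.2 FPKM in knockout tumours, a target that lay below in every knockout library while Glul and Slc1a2 lay above (log2 fold change -1.48 ± 0.37, limma adjusted p = 0.38). Myc had a log2 fold change of -0.94 ± 0.31 with overlapping groups, and Sox9 one of -0.46 ± 0.19 without overlap. Of the 12 other Wnt targets, 2 had all knockout values below the floxed values, beside 6.32% of all genes, and 0 had all above, beside 8.68%. Among glutamine genes, Got1, the cytosolic aspartate aminotransferase that forms glutamate, was at 48.1, 69.4 and 43.7 FPKM in floxed and at 128, 148 and 125 FPKM in knockout tumours. Its groups did not overlap (log2 fold change 1.32 ± 0.20, limma adjusted p = 0.215), while Prodh and Gls2, the liver glutaminase, had 0.60 ± 0.36 and 0.35 ± 0.22. Of the 20 glutamine genes, 1 had all knockout values above the floxed values and 1 had all below, beside the same shares of all genes.

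Ligand and receptor genes of the pathway had smaller fold changes than Got1. Wnt2, a ligand of liver endothelium, was at 1.01, 1.15 and 1.24 FPKM in floxed and at 1.58, 1.63 and 2.01 FPKM in knockout tumours. Rspo3, which encodes an R-spondin that binds Lgr5, was at 1.43, 1.54 and 1.05 FPKM in floxed and at 2.11, 2.43 and 1.87 FPKM in knockout tumours. Lrp5, a Wnt co-receptor, was at 15.7, 15.7 and 21.7 FPKM in floxed and at 26.4, 22.9 and 27.4 FPKM in knockout tumours. In all 3 the knockout libraries lay above the floxed libraries, with log2 fold changes of 0.36 ± 0.13, 0.42 ± 0.14 and 0.52 ± 0.16, and the limma adjusted p was 0.511, 0.473 and 0.448. Of the 29 pathway components, 4 had all knockout values above the floxed values, beside 8.68% of all genes, and 4 had all below, beside 6.32%. Ctnnb1, which encodes β-catenin and was looked at for its role and not by the rule for named genes, was at 52.3, 56.7 and 60.6 FPKM in floxed and at 52.4, 56.8 and 62.3 FPKM in knockout tumours. Of the other zonated genes, the pericentral Cyp2c37 and Avpr1a had log2 fold changes of 1.86 ± 0.41 and 1.22 ± 0.32, and the pericentral Blvrb one of -0.55 ± 0.21. The periportal Tat and Ctsc had 1.39 ± 0.33 and 0.93 ± 0.22, and Hsd17b6 had -1.74 ± 0.46. Groups did not overlap for any of these 6, which were picked for their small p, so nothing is read from them about the zones. Of the 29 pericentral genes, 2 had all knockout values above the floxed values and 1 had all below. Of the 24 periportal genes, 4 had all above and 2 all below. The shares of all genes were 8.68% above and 6.32% below.

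In the Miz1 table, 0 of 19 other Wnt targets, 0 of 38 pathway components, 0 of 25 glutamine genes, 0 of 30 pericentral and 0 of 24 periportal genes passed in either direction. The median log2 fold changes were 0.05, -0.03, -0.08, -0.39 and -0.29, beside 0.01 for all genes. Without the libraries numbered 1 they were -0.03, -0.12, -0.01, -0.32 and -0.33, again beside 0.01, and 0 of each list passed. Wls, which carries Wnt ligands to the cell surface, had 278, 242 and 277 normalised reads in floxed and 441, 750 and 445 in knockout replicates. Every knockout library was above every floxed one (log2 fold change 0.99 ± 0.24), which held for 1 of the 38 pathway components, beside 2.57% of all genes. Fzd6 and Fzd5, Frizzled receptors, had log2 fold changes of 0.47 ± 0.32 and 0.44 ± 0.30, and the Wnt targets Sox9, Nkd2 and Lef1 had 0.42 ± 0.22, 0.53 ± 0.36 and -0.66 ± 0.55. Among glutamine genes, Slc38a2 and Gpt2 lay below the floxed range in every knockout library (-0.34 ± 0.15 and -0.45 ± 0.21), and Aldh18a1 overlapped (0.93 ± 0.60). The pericentral Ephx1 and the periportal Arg1 also lay below it in every knockout library (-0.33 ± 0.14 and -0.45 ± 0.23), while Cib3, Nr1i3, Sds and Ftcd overlapped (1.81 ± 0.96, -0.91 ± 0.49, -1.26 ± 0.69 and -0.31 ± 0.22). All knockout values lay below the floxed values for 2 of 25 glutamine, 1 of 30 pericentral and 1 of 24 periportal genes, beside 3.05% of all genes. They lay above for 0 of each of these 3 lists, beside 2.57%. The 15 named genes were picked for small p with replicates 2 and 3 included, so nothing is read from a kept sign. Without the libraries numbered 1 each of the 15 named genes kept its sign. The fold change of Wls was then 1.15, that of Sox9 0.60, of Nkd2 0.24, of Fzd5 0.69, of Cib3 2.73, of Nr1i3 -1.07 and of Sds -1.47.

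The low values in both libraries numbered 1 were shared by many zonated genes of either kind. These libraries were the 2 lowest for 18 of 30 other pericentral genes and for 13 of 24 periportal genes, for 6 of 25 glutamine genes, for 10 of 38 pathway components and for 3 of 19 other Wnt targets, beside 21.9% of all genes. They were the 2 highest for 7 of the 30 pericentral, 4 of the 24 periportal, 4 of the 25 glutamine, 3 of the 38 pathway and 4 of the 19 Wnt target genes, beside 22.1% of all genes. Cyp2e1, a pericentral cytochrome P450 that was looked at after its values were seen, had 6372, 131465 and 100946 normalised reads in floxed and 7059, 57731 and 73330 in knockout replicates. As for Glul, replicate 1 was the lowest library of both groups and floxed replicate 2 the highest.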

How the data were processed

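RNA of 12 tumours was sequenced from TruSeq libraries made of Trizol RNA, per the labels. The submitters' processing notes name mm10, DESeq2 1.16.1, edgeR 3.18.1, RSEM 1.1.17, Bowtie2 2.2.6, Trimmomatic 0.36 and bcl2fastq 2.19.0, with no role or order. The Miz1 table was deposited as a signal per gene. Dividing by the step that 1 read adds gave whole reads, within 0.01, for 100% of the non-zero values in 5 of its 6 columns, and no reads are claimed for floxed replicate 3. Entries that name no gene hold 38.0% to 50.8% of each column and were left out. The Miz1(POZ) table was deposited as FPKM with 2 decimals, by its values. No header names the unit, and RPKM cannot be told apart from it. Across 10300 genes the log2 ratio of the Miz1(POZ) to the Miz1 value fell with log2 exon length (slope -0.94).

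Genes with a mean of at least 1 were tested within each table by limma 3.58.1 (R 4.3.3, trend) on log2(value + 1), which understates the change of low genes, with Benjamini-Hochberg adjustment over all genes and a threshold of 0.05. The members and lists were chosen with earlier results of these data known. Named genes of the wider pathway are the 3 of smallest unadjusted p in each list and table. Marker genes Tf, in both tables, and Adgre1 and Spink1, in the Miz1(POZ) table, were not analysed here. The labels state no pairing, and the main fits and their SEs use none. For the replicate block, pairs were read from the numbers in the titles, and counted as such where every same-numbered correlation across genes was over 0.1. That held in the Miz1 table (0.489, 0.339 and 0.118, with a higher value, 0.282, between floxed replicate 2 and knockout replicate 3) and not in the Miz1(POZ) table (-0.093, 0.23 and 0.175). Both Miz1 libraries numbered 1 stand apart, and centring in groups of 3 then raises the correlations among the other replicates. The rule therefore cannot show pairing. Alternatives were a pseudocount of 0.1, no filter or a mean of at least 5, median-ratio scaling, quantile normalization, the replicate block, each library left out and, on the recovered reads, edgeR 4.0.16 and DESeq2 1.42.0. Leaving out both libraries numbered 1 was added after seeing the data. The fits were tested on simulated data. Gene coordinates (GRCm38, the mm10 build) were read from GENCODE M21 and count from 1.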

Additional observations from a re-analysis of the deposited data

How the results depend on the processing

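In the Miz1 table every alternative called 0 genes except DESeq2 on the recovered reads of 5 libraries, which called 5 genes, none of them a member (321 at an unadjusted p under 0.05, against 195 and 0 calls for edgeR). In the Miz1(POZ) table the calls ranged from 0 to 4 when single libraries were left out, and no other alternative made a call. With the replicate block, 0 genes passed in either table (1150 and 1076 at an unadjusted p under 0.05), and the block changed no call. The SE of Glul and Slc1a2 with the block was 0.28 and 0.50 in the Miz1 table, against 0.91 and 2.18 in the main fit. As pairing is not shown, the main values are the ones used. The correlation with Glul passed for 6 of 9 genes over 12 libraries, for 0 in the Miz1 table alone, for 0 in the Miz1(POZ) table alone and for 0 with both libraries numbered 1 left out. It passed for 5 without the 2 libraries farthest from the median of Glul. In each table alone the design has 36 orders and 6 libraries, which limits the p. For Rnf43 and Lect2, r turned to -0.54 and -0.62 in the Miz1 table alone. The cause was not tested. No scaling moved the median of all genes by over 0.1. Count tests were not run on the Miz1(POZ) table, whose depth is unknown, and low values such as Rhbg in the Miz1 table rest on few reads.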

Other observations

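Among the pericentral genes, a group chosen after its values were seen ran against Glul in the Miz1 table. Gstm1, a glutathione transferase, was at 67170, 18900 and 20688 normalised reads in floxed replicates 1 to 3 and at 58215, 14883 and 21039 in knockout replicates 1 to 3. Gstm3, of the same family, had 6277, 961 and 440.3 normalised reads in floxed and 3643, 361 and 667 in knockout replicates. Both were highest in the libraries numbered 1, where Glul, Slc1a2 and Oat were lowest, and so were Gstm2 and Gstm6. Ctnnb1 was highest there too, at 9247 and 9873 normalised reads, against 4581 to 6521 in the other 4 libraries. The libraries numbered 1 were the 2 highest for 7 of 30 pericentral genes and 3 of 38 pathway components, beside 22.1% of all genes. As these genes were picked, nothing is read from them about a pattern opposite to that of Glul.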
